A study of Mus musculus with 6 samples.

Results

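The genes described here encode the machinery of macroautophagy and its cargo receptors, measured as messenger RNA in whole mouse eyes early and late in the light phase. The members were fixed as a list of 35 gene symbols, of which 33 are rows of the deposited tables of 22692 symbols. The symbols Tfeb and Tfe3 are not among the rows, and the rows Tcfeb and Tcfe3, which RefSeq gives as older names of the same genes, are reported beside the members. No measured value was used to choose a member, although earlier results of these data were known when the list was drawn up.

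The material was whole eye of the inbred strain C57BL/6J, with no other genotype and no treatment in the labels. There were 3 libraries at 1.5 h after light onset and 3 at 9.0 h, each from the pooled RNA of 5 females aged 4 weeks. It is not stated if the 3 pools at a time held different animals, so that p-values speak only of the spread among the libraries, possibly a technical one. The lens, retina, pigment epithelium, cornea and muscle all enter the sample, so that fewer cells of a type and less RNA per cell cannot be told apart in any value below.

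In autophagy, a cup of membrane closes around cytoplasm or a chosen organelle, and the resulting vesicle fuses with a lysosome, where the content is broken down. The ULK kinase complex starts the process, a lipid kinase complex around Becn1 marks the membrane, and a conjugation system akin to that of ubiquitin attaches small proteins of the ATG8 family to it. Receptor proteins then tie cargo to ATG8. In the eye, parts of the same conjugation system serve the breakdown of shed photoreceptor outer segments in the pigment epithelium, and Bnip3l is known for the removal of organelles from lens fibres.

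The values are RPKM, reads scaled by gene length and by the reads of the library. Whole-read steps in low values gave estimated depths of 28940000, 12690000 and 13000000 reads for 1.5 h replicates 1 to 3 and between 24030000 and 31770000 reads for the 9.0 h libraries. Markers of rods, cones, lens, pigment epithelium, cornea and muscle were above 0 in every library, in keeping with the labelled tissue. Lens markers (12 of 12 measured) summed to between 75094 and 115315 RPKM at 1.5 h, lowest in replicate 1, and to between 115147 and 132393 RPKM at 9.0 h, and skeletal muscle markers (11 of 11) to between 1007 and 1886 and between 1712 and 1916 RPKM. In 1.5 h replicate 3, a pool labelled female, the Y-linked genes Ddx3y, Uty, Kdm5d and Eif2s3y had 0.479, 0.205, 0.126 and 0.78 RPKM, against 0 for each of them in the 5 remaining libraries.

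Autophagy transcripts were present in every library, and 1 of the 33 differed between the times by the test used. All 33 passed the filter of at least 1 RPKM in 3 or more libraries, in common with 13490 genes. Gabarapl2, a member of the ATG8 family, was higher at 9.0 h (limma adjusted p under 0.05), and no member was lower. Over all tested genes 0.222% were called, 0.148% higher and 0.0741% lower. At an unadjusted limma p of 0.05, 3 members were higher and 0 lower, against 6.47% and 4.58% of all tested genes. Libraries of the times did not overlap for 5 members, all higher at 9.0 h (15.2%, against 9.78% of all tested genes), and for 0 in the lower direction, against 8.41%. The median log2 fold change (9.0 h minus 1.5 h, of RPKM + 0.1) was 0.045 over the members and −0.003 over all tested genes, with 23 members above 0 and 10 below.

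The sequences of Gabarapl2 and its processed pseudogenes are shown because the single call rests on a gene with near-identical copies of part of its transcript. Short reads from that part can be confused with the copies. Processed pseudogenes are copies of a messenger RNA pasted back into the genome. In GENCODE M21 transcripts, 3 of them match Gabarapl2 (GRCm38 chr8:111940703-111953612, plus strand) by at least 95% over 200 bases or more. Gm3724 (chr5:24118316-24118664, minus strand) had 99.4% identity over 349 bases. Gm6051 (chr5:76060412-76060763, minus strand) had 98.0% over 352 bases, and Gm5829 (chr1:71709705-71710055, minus strand) 96.6% over 351. The matches cover 349 to 352 bases of a Gabarapl2 transcript of 1677 bases, and no other gene matched the rest at this threshold. The first 120 bases of the coding sequence are given 5′ to 3′ with the matching stretch of each copy, and capitals mark bases that differ from Gabarapl2 or are inserted.
Gabarapl2: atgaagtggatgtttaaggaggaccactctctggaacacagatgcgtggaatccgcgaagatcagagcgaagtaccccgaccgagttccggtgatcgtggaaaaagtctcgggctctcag
Gm3724: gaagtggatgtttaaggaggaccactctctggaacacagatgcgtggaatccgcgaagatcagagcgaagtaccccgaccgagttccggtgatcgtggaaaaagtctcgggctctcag
Gm5829: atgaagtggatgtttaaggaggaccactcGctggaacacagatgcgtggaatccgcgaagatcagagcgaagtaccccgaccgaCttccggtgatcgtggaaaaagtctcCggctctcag
Gm6051: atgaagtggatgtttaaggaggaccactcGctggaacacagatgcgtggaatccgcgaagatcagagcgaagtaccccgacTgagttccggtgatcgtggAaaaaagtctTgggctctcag
Gm3724 has no difference in the 118 bases it shares with this stretch, Gm5829 has 3 and Gm6051 has 4, the inserted base included. None of the 3 copies has a row in the deposited tables, and how the authors treated reads with several matches is not stated in the labels.

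**Figure D1:**
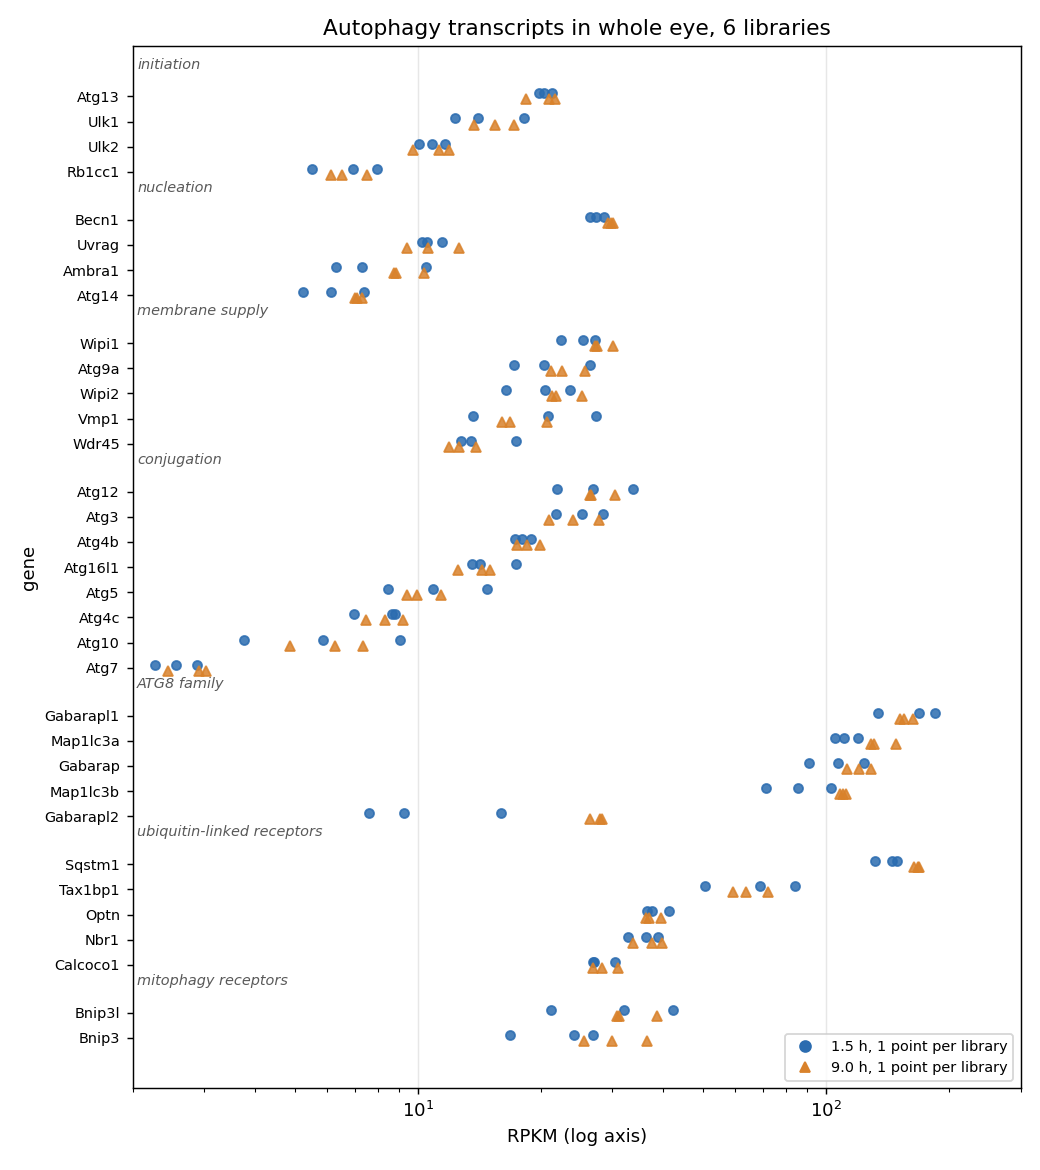
RPKM (log axis) of each of the 33 autophagy genes, grouped by step and ordered by mean level within the step. Each point is 1 library, circles for 1.5 h and triangles for 9.0 h. Gabarapl2 is the gene with a clear gap between the times, from 7.60 to 16.01 RPKM at 1.5 h and from 26.38 to 28.30 RPKM at 9.0 h.

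The ATG8 family are the small proteins that are joined to lipid on the growing membrane, in an LC3 branch (Map1lc3a, Map1lc3b) and a GABARAP branch (Gabarap, Gabarapl1, Gabarapl2). Gabarapl2, also known as GATE-16, was measured at 16.01 (replicate 1), 7.60 and 9.24 RPKM at 1.5 h, and at 26.38, 27.96 and 28.30 RPKM at 9.0 h. Every 9.0 h library was above every 1.5 h library, and the deepest 1.5 h library was the highest of its time. The means were 10.95 ± 4.46 and 27.55 ± 1.03 RPKM (SD, n = 3 each), a log2 fold change of 1.40 ± 0.23 (SE) with a limma adjusted p of 0.0486. On its transcript of 1677 bases this corresponds to about 780, 160 and 200 reads at 1.5 h and 1400, 1400 and 1100 reads at 9.0 h.

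That call lay at the edge of the threshold. Its limma adjusted p was 0.055 at a pseudocount of 0.01, 0.0963 with no filter, 0.117 after quantile normalization and 0.0832 with each library centred on its median. Leaving out 1 library gave between 5.98e-24 (without 1.5 h replicate 1, in a fit that called 1219 genes) and 0.507 (without 9.0 h replicate 3). It was 0.184 without 1.5 h replicate 3, the library with Y-linked reads, and 0.258 and 0.205 without 9.0 h replicates 1 and 2. Without 1.5 h replicates 2 and 3, the 2 libraries of lowest depth, replicate 1 is the single library of its time and its spread is assumed to be that of the 9.0 h libraries. In that fit the log2 fold change was 0.778 ± 0.183 (SE). In the other 14 settings tried the log2 fold change stayed positive, between 1.17 and 1.71.

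Map1lc3a and Map1lc3b, the LC3 proteins used as markers of autophagosomes, were also without overlap but were not called. Map1lc3a had 105.5, 110.96 and 119.97 RPKM at 1.5 h and 129.39, 131.56 and 148.26 RPKM at 9.0 h (log2 fold change 0.28 ± 0.14 SE, limma adjusted p = 0.499). Map1lc3b had 85.35, 102.82 and 71.29 RPKM at 1.5 h and 110.11, 108.24 and 111.96 RPKM at 9.0 h (0.36 ± 0.16, limma adjusted p = 0.435). The SD of Map1lc3b was 15.8 RPKM at 1.5 h and 1.86 RPKM at 9.0 h. Map1lc3b has 4 near-identical pseudogenes, each aligned over 360 to 378 bases of a transcript of 2532. Reads from that stretch could be shared, so its level is uncertain too, and Map1lc3a has no such copy.

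Gabarap and Gabarapl1 overlapped between the times. Gabarap, after which the branch is named for its binding to a GABA receptor, had 90.74, 124.31 and 107.21 RPKM at 1.5 h and 112.51, 129.27 and 120.49 RPKM at 9.0 h (log2 fold change 0.18 ± 0.16 SE). Gabarapl1, its closest relative in sequence, had 134.5, 185.3 and 169.57 RPKM at 1.5 h and 163.6, 155.05 and 152.12 RPKM at 9.0 h (−0.04 ± 0.16). The coding sequences of this pair were 74.9% identical, against 64.6% and 64.9% for each with Gabarapl2 and 77.5% for Map1lc3a with Map1lc3b.

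**Figure D2:**
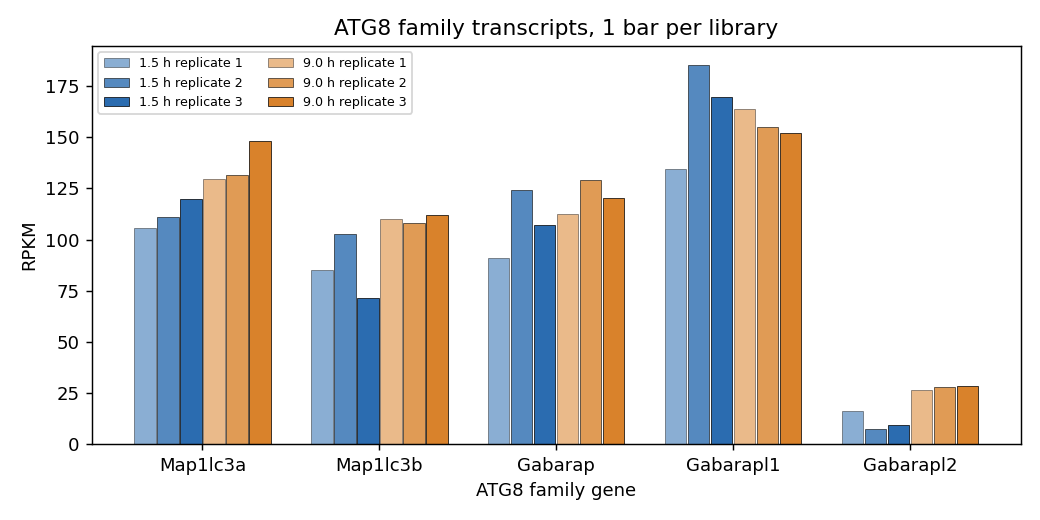
RPKM of the 5 ATG8 family genes, with 1 bar per library in blue for 1.5 h and orange for 9.0 h. Gabarapl1 is the tallest and Gabarapl2 the lowest in all 6 libraries, with every 9.0 h bar of Gabarapl2 above its 1.5 h bars.

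Shares within the family do not depend on how a library was scaled. Gabarapl2 made up 3.71%, 1.43% and 1.94% of the summed RPKM of the 5 genes at 1.5 h and 4.87%, 5.06% and 5.04% at 9.0 h. The mean difference was 2.63 percentage points, given as a description, since Gabarapl2 is the called gene. Gabarapl1 made up 31.13% to 35.53% at 1.5 h and 27.11% to 30.19% at 9.0 h, although its own RPKM overlapped between the times, with means of 163.1 and 156.9. Shares sum to 100%, so a gene at a like level takes a smaller share of a larger family sum. Map1lc3a, Map1lc3b and Gabarap overlapped in share, with means of 23.48%, 18.02% and 22.29% at 1.5 h and 24.71%, 19.96% and 21.88% at 9.0 h. The family as a whole summed to 432.1, 531.0 and 477.3 RPKM at 1.5 h and to 542.0, 552.1 and 561.1 RPKM at 9.0 h.

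Across the whole table, genes with a near-identical copy were shifted in the direction of Gabarapl2. The median log2 fold change was 0.134 over the 1341 tested genes with a copy and −0.016 over the 12149 without one. The share called in either direction was 0.969% with a copy and 0.14% without, and the share without overlap and higher at 9.0 h was 22.1% and 8.41%. Their median deviation by library was −0.154, 0.074 and −0.111 at 1.5 h and 0.034, 0.124 and 0.06 at 9.0 h on the log2 scale. Among the members, 5 have such a copy (Gabarapl2, Map1lc3b, Bnip3, Bnip3l and Rb1cc1), with a median of 0.364, and the 28 without one had 0.039 and no call. The 3 members past an unadjusted limma p of 0.05 were Gabarapl2, Map1lc3b and Bnip3, all with copies. The part of shared reads in these differences was not tested.

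**Figure D3:**
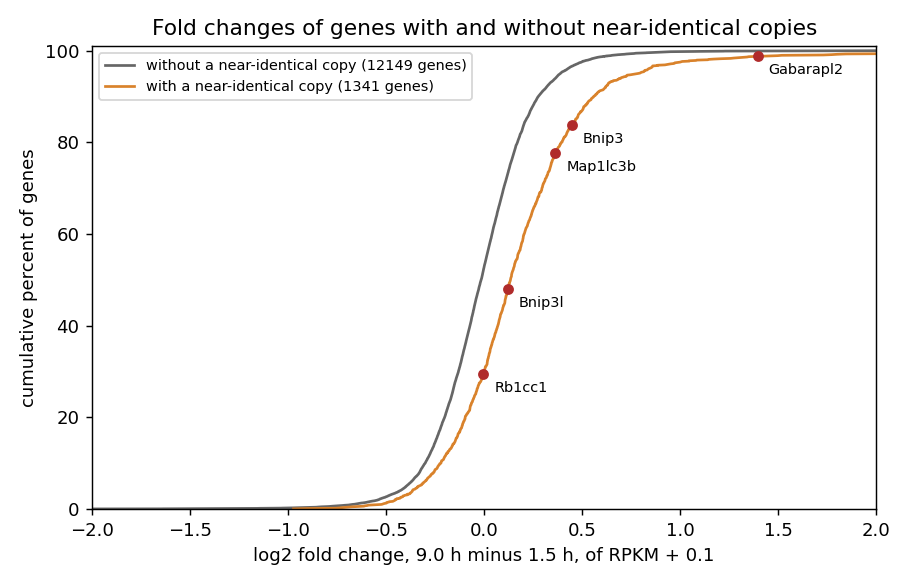
Cumulative percent of genes by log2 fold change (9.0 h minus 1.5 h), grey for the 12149 tested genes without a near-identical copy and orange for the 1341 with one. Red points mark the 5 autophagy genes with a copy on the orange line, from Rb1cc1 near 0 to Gabarapl2 at 1.40.

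No gene of initiation was called different between the times. Ulk1 and Ulk2 encode the kinases of the ULK complex, and Atg13 and Rb1cc1 (FIP200) its regulatory and scaffold subunits. Atg13 had 21.32, 19.81 and 20.34 RPKM at 1.5 h and 21.66, 18.43 and 20.97 RPKM at 9.0 h. Ulk1 had 18.19, 12.32 and 14.01 RPKM at 1.5 h and 17.17, 13.72 and 15.44 RPKM at 9.0 h. The log2 fold changes of the 4 genes lay between −0.01 and 0.07, the median was 0.006, and 0 were called or past an unadjusted limma p of 0.05.

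Nucleation genes had fold changes above 0 in 4 of 4 cases, and 0 were called by limma or past an unadjusted p of 0.05. Becn1, the scaffold of the lipid kinase complex, had 27.31, 28.66 and 26.41 RPKM at 1.5 h and 30.17, 29.27 and 29.71 RPKM at 9.0 h. The times did not overlap, but the step was small, at 0.11 ± 0.12 (SE; limma adjusted p = 0.785). Uvrag and Atg14, which form alternative complexes with Becn1, had 0.01 and 0.20, and Ambra1, a regulator that links Becn1 to ULK1, had 0.24 ± 0.19. Uvrag had 10.52, 10.22 and 11.48 RPKM at 1.5 h and 12.64, 10.61 and 9.42 RPKM at 9.0 h, so its highest and lowest values were both at 9.0 h. The median of the 4 was 0.158.

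Genes for membrane supply and lipid sensing were mixed in direction, with 0 called by limma and 0 past an unadjusted p of 0.05. Atg9a, a membrane protein that seeds the phagophore, had 26.37, 17.21 and 20.42 RPKM at 1.5 h and 25.64, 21.25 and 22.61 RPKM at 9.0 h. Wipi1, which binds phosphoinositides on that membrane, had 22.42, 25.43 and 27.24 RPKM at 1.5 h and 30.03, 27.46 and 27.11 RPKM at 9.0 h. Their log2 fold changes were 0.14 ± 0.17 and 0.18 ± 0.13 (SE), and that of Wipi2, which recruits the conjugation complex, was 0.19 ± 0.16. Vmp1, a lipid scramblase of the endoplasmic reticulum, and Wdr45, a relative of the WIPI proteins, had −0.16 ± 0.23 and −0.17 ± 0.16. Vmp1 ran from 13.65 to 27.41 RPKM within the 1.5 h libraries, wider than its difference between the times.

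The conjugation step had 8 measured genes and log2 fold changes between −0.11 and 0.12, with 0 called by limma and 0 past an unadjusted p of 0.05. Atg12, a ubiquitin-like protein that is joined to Atg5, had 21.98, 33.68 and 26.93 RPKM at 1.5 h and 26.54, 30.44 and 26.46 RPKM at 9.0 h. Atg3, the enzyme that passes ATG8 proteins to lipid, had 21.79, 28.41 and 25.24 RPKM at 1.5 h and 21.0, 27.73 and 23.98 RPKM at 9.0 h. In both genes replicate 2 was the highest library of each time. Atg7, the activating enzyme for ATG8 proteins and Atg12, was the lowest of all members, at 2.57 ± 0.30 and 2.80 ± 0.32 RPKM (SD, n = 3 each). Atg5 and Atg16l1, which with Atg12 direct where ATG8 is attached, had log2 fold changes of −0.11 and −0.10, Atg4b and Atg4c, proteases that trim ATG8 proteins, 0.05 and 0.04, and Atg10, which joins Atg12 to Atg5, 0.06. The median of the 8 was 0.036, and −0.002 after quantile normalization.

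**Figure D4:**
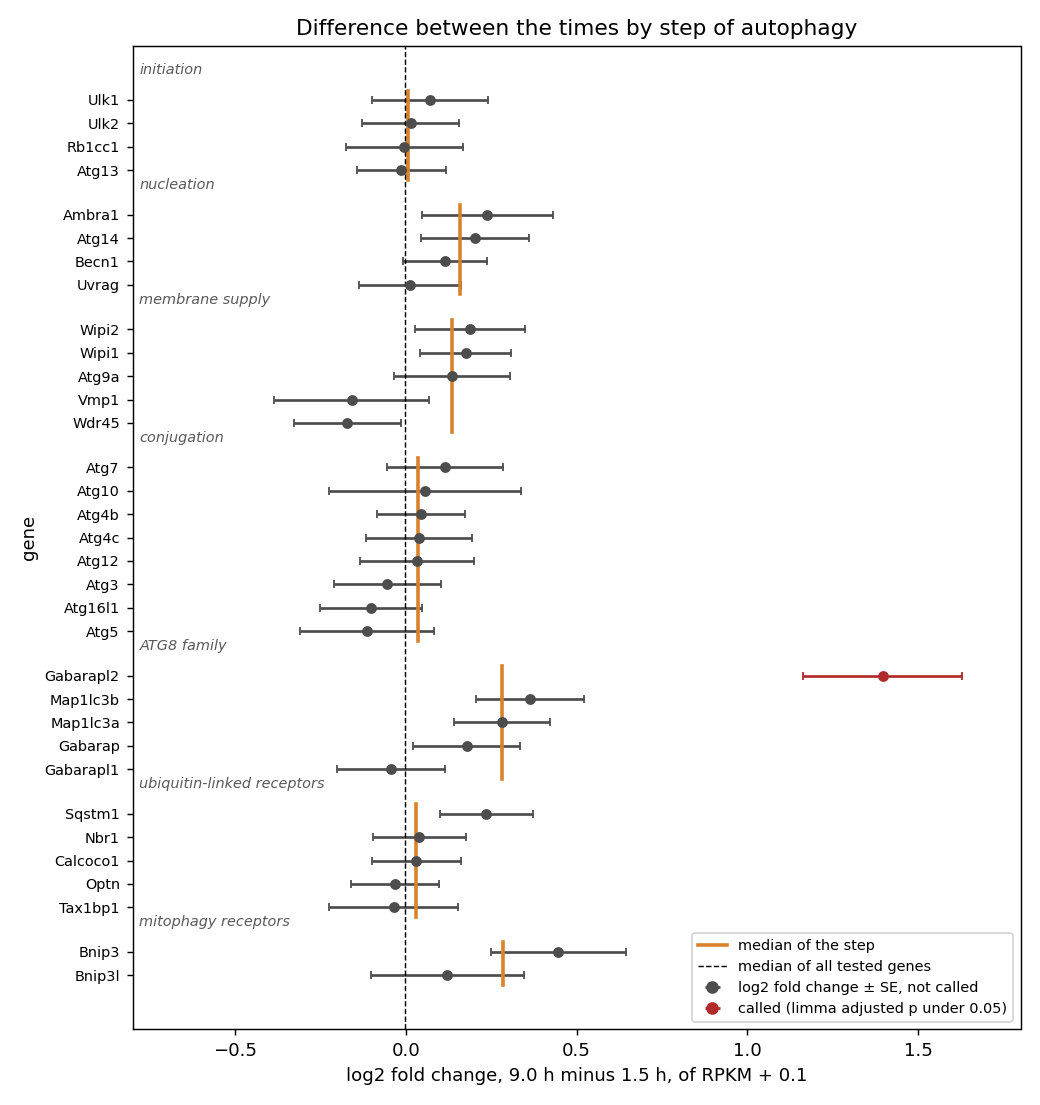
Log2 fold change (9.0 h minus 1.5 h, of RPKM + 0.1) of each member with its standard error, by step. Orange lines give the median of each step, from 0.006 for initiation to 0.282 for the ATG8 family and 0.285 for the 2 mitophagy receptors (0.239 and 0.053 without 1.5 h replicate 1), the dashed line the median of all tested genes at −0.003, and red the single called gene, Gabarapl2.

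Of the 5 receptors that bind ubiquitin-tagged or other cargo, 1 (20.0%) had no overlap between the times, Sqstm1. Over all tested genes 9.78% were without overlap and higher at 9.0 h. Sqstm1 (p62) is itself broken down with its cargo, and had 131.64, 149.17 and 145.42 RPKM at 1.5 h and 167.94, 164.33 and 169.19 RPKM at 9.0 h. Every 9.0 h library was above every 1.5 h library, and the log2 fold change was 0.24 ± 0.14 (SE; limma adjusted p = 0.572). Tax1bp1, a receptor for protein aggregates, had 50.57, 84.16 and 69.04 RPKM at 1.5 h and 63.78, 72.24 and 59.26 RPKM at 9.0 h, with a 1.5 h range that held every 9.0 h value. Nbr1, Optn (optineurin, a gene linked to glaucoma) and Calcoco1 had means between 28.1 and 38.4 RPKM at each time and log2 fold changes of 0.04, −0.03 and 0.03. The median of the 5 was 0.031, and −0.044 after quantile normalization, with 0 called by limma or past an unadjusted p of 0.05.

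Bnip3 and Bnip3l sit on the mitochondrial outer membrane and bind ATG8 proteins there. Bnip3 had 16.82, 26.89 and 24.17 RPKM at 1.5 h and 25.53, 36.45 and 29.87 RPKM at 9.0 h. A single 1.5 h library, replicate 2, overlapped the 9.0 h range, and the log2 fold change was 0.45 ± 0.20 (SE; limma adjusted p = 0.437). Bnip3l (NIX) had 21.18, 42.19 and 32.07 RPKM at 1.5 h and 30.81, 38.58 and 31.12 RPKM at 9.0 h (0.12 ± 0.23, limma adjusted p = 0.884). In both genes 1.5 h replicate 1 was the lowest of the 6 libraries. Its RPKM summed over all genes was also the lowest, at 393433. So were its marker sums for lens, muscle, pigment epithelium, Mueller glia, corneal stroma and sclera, blood and adipose tissue. Its marker sums for rods, cones, melanin, corneal epithelium and immune cells were not the lowest. Among the 1.5 h libraries, 19 of the 33 members were lowest in replicate 1. The part of these library differences in the values of Bnip3 and Bnip3l was not tested. With that library alone for 1.5 h, in the fit described above for Gabarapl2, the log2 fold changes were 0.845 for Bnip3 and 0.651 for Bnip3l. Without that library they were 0.248 for Bnip3 (limma adjusted p = 0.348) and −0.142 for Bnip3l (limma adjusted p = 0.626), so that Bnip3l changed sign. The median of the pair was 0.285 with all libraries, 0.053 with that library left out, 0.469 with 1.5 h replicate 2 left out and 0.165 with 9.0 h replicate 2 left out.

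Tfeb and Tfe3 are transcription factors that switch on genes of lysosomes and autophagy. The row Tcfeb had 6.88, 4.63 and 6.64 RPKM at 1.5 h and 7.31, 6.41 and 7.33 RPKM at 9.0 h, and Tcfe3 had 10.28, 7.69 and 9.57 RPKM at 1.5 h and 11.3, 9.39 and 10.09 RPKM at 9.0 h. Both overlapped between the times, with log2 fold changes of 0.23 ± 0.18 and 0.17 ± 0.16 (SE; limma adjusted p = 0.691 and 0.758). These factors bind E-boxes of the form CACGTG. The motif in a promoter does not show that these factors bind there, and binding was not tested. RefSeq promoter windows (GRCm38.p6, 250 bases before to 50 after a start) were found for 27 of the 33 members. CACGTG, the same on both strands, was in 5 of them (Atg14, Atg3, Atg5, Atg7 and Bnip3; 18.5%) and in 8.09% of 27025 genes, and the longer TCACGTGA, which contains it, in 1 (Atg3) and 1.12%.

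For the 32 members that were not called, the limma intervals rest on the spread among the libraries, possibly a technical one. They describe these libraries and do not bound a change between the times in animals. The 95% limma interval of the log2 fold change lay within −1 and 1 for 32 of 32 and within −0.5 and 0.5 for 18. It held 0 for 30, the exceptions being Map1lc3b and Bnip3. Whether one step of autophagy differed more than another was not tested.

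Members differed between replicates of a time along with their base composition. At 1.5 h, the log2 difference of replicate 2 from replicate 1 was lower at higher GC content of the longest transcript, with a Spearman correlation of −0.62 across the 33 members and −0.57 across 13378 tested genes. At 9.0 h the same correlation was −0.73 across members and −0.53 across tested genes. The relation was not the same for every pair of libraries: for replicate 3 against replicate 1 it was −0.55 across members and −0.41 across tested genes at 1.5 h, and −0.33 and 0.08 at 9.0 h. The log2 fold change between the times also ran with GC content, with a Spearman correlation of 0.28 across members and 0.35 across tested genes, and the part of GC content in single differences between the times was not tested beyond the removal of its trend. These correlations are across genes of the same libraries and are given as descriptions. Atg10 (40.3% GC), Vmp1 (43.5%) and Bnip3l (41.9%) differed by 1.25, 1.00 and 0.99 at 1.5 h, and Ulk1 (58.0%), Atg9a (56.0%) and Ambra1 (54.7%) by −0.56, −0.61 and −0.72. Gabarapl2 lay off this line, at 45.3% GC with −1.07 at 1.5 h and 0.08 at 9.0 h. The log2 range among the 1.5 h libraries exceeded that among the 9.0 h libraries in 26 of 33 members. With the GC trend of each library removed, Gabarapl2 had 1.47 ± 0.29 (SE; limma adjusted p = 0.0943) and no member was called.

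**Figure D5:**
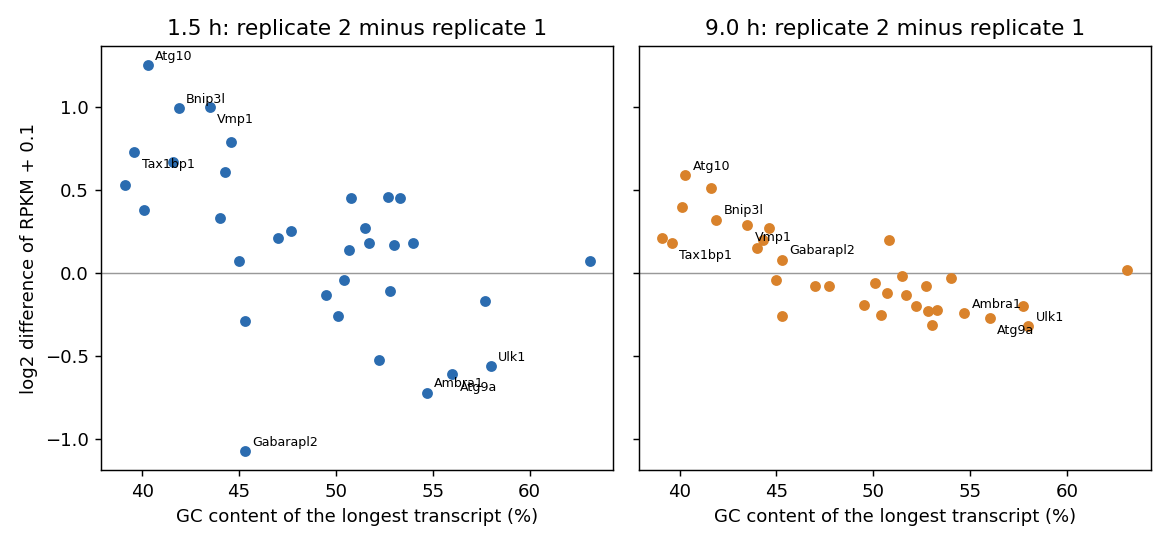
Log2 difference of replicate 2 from replicate 1 (RPKM + 0.1) against GC content of the longest transcript, 1 point per autophagy gene, at 1.5 h (left) and 9.0 h (right). Points fall from left to right at both times, with Spearman correlations of −0.62 and −0.73, and Gabarapl2 is the lowest point at 1.5 h, at −1.07.

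Autophagy genes outside the list were counted from fixed lists. At an unadjusted limma p of 0.05, 6.47% of all tested genes were higher and 4.58% lower. Of 14 other core genes 0 were called by limma, with a median log2 fold change of 0.06 and 1 higher at an unadjusted p of 0.05. Their most abundant members were 9430023L20Rik (Atg101, a partner of Atg13) at 0.27 and Sh3glb1 (a membrane-curving partner of Uvrag) at 0.07. Of 13 genes for fusion with the lysosome 0 were called by limma, with a median of −0.071, 2 lower at an unadjusted p of 0.05, and Rab7 (which has 1 near-identical copy) and Vamp8 at 0.19 and −0.13. Of 14 further genes of selective autophagy 0 were called by limma, with a median of 0.01 and 1 lower at an unadjusted p of 0.05. Pink1, the kinase that marks damaged mitochondria, had 0.12 and Fkbp8, another mitochondrial receptor, 0.21.

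Upstream signalling genes, which set how active autophagy is, had a median of −0.151 over 25 tested. Of these 0 were called by limma, and 2 were higher and 4 lower at an unadjusted p of 0.05. Over all tested genes 6.47% were higher and 4.58% lower at that limma p. Prkab1, a subunit of the energy sensor AMPK, had 0.01, and Ddit4, an inhibitor of mTOR signalling, 0.35 (limma adjusted p = 0.547). Lysosome genes had a median of 0.126 over 30 tested, with 0 called by limma and 3 higher and 0 lower at an unadjusted p of 0.05. The libraries did not overlap for 7 of these 30 (23.3%), all higher at 9.0 h, beside 9.78% of all tested genes. In the lower direction they did not overlap for 3 of 13 fusion genes (23.1%) and 5 of 25 upstream signalling genes (20.0%), beside 8.41% of all tested genes. For the other selective genes it was 2 of 15 measured (13.3%) lower and 1 (6.67%) higher. The 14 other core genes had 0 lower and 2 (14.3%) higher. Higher were also 1 fusion gene (7.69%) and 2 upstream signalling genes (8.0%). Ctsd (cathepsin D) and Psap (prosaposin) were the most abundant, with 0.28 and 0.01.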

How the data were processed

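Per the labels, poly(A) RNA of whole eyes was copied with random primers and sequenced. Each library's deposited table lists 22692 gene symbols. The values the authors deposited were read as RPKM, since low ones step by whole reads per transcript length. The submitters' processing notes name GSNAP, HTSeq and mouse build mm9; the annotation, strand setting and handling of multi-mapped reads is not given in the sources used here. Gene spans of 13 members, introns included, overlap a gene on the other strand in GENCODE M21, among them Becn1, Map1lc3b, Sqstm1 and Bnip3. Whether exons overlap was not checked. With the strand setting unknown, reads from any shared exon stretch may not have been told apart.

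Total reads were estimated from these steps in genes of 1 transcript length, where 70.2% to 73.7% of values lay within 0.1 read of a whole number. At 1 RPKM a transcript of 2 kb had 25.4 to 63.5 reads, and 3 reads, the most a count of 0 allows, made up to 0.118 RPKM, for counting error only.

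The filter kept 13490 genes that reached 1 RPKM in 3 libraries or more. Values on the log2(RPKM + 0.1) scale, which understates folds of low genes, were tested with limma 3.58.1 (eBayes, trend and robust, R 4.3.3), 9.0 h minus 1.5 h, two-sided, with Benjamini-Hochberg adjustment at 0.05. In simulated data the fit recovered 71% of 2-fold and 95% of 4-fold changes, with 6 false calls in 13363 genes. The simulated noise was normal, independent between genes and of a spread pooled over the times. It left out the GC-linked differences between replicates and the wider 1.5 h spread of most members, so these rates need not hold here. Near-identical copies were found with minimap2 2.31 (at least 200 bases at 95% identity, 5000 bases apart) among GENCODE M21 transcripts, where 112 tested genes had no match.

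The members and lists were chosen with earlier results of these data known. Values in every library were given for called members, the ATG8 family the 2 most abundant members of each step and the 3 largest changes each way among members without overlap, and in other lists called genes and the 2 most abundant were named. Any gene beyond these was picked with its values in view. Alternatives were other pseudocounts, filters and scalings, a replicate block, leaving out libraries or genes with copies and, added after seeing the data, removal of GC trends and of the 2 libraries of lowest depth.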

Additional observations from a re-analysis of the deposited data

How the results depend on the processing

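The single called member was lost under a pseudocount of 0.01, no filter, quantile normalization, centring on the median, GC trends removed and members with a copy left out (0 called each), and 4 were called without the 2 libraries of lowest depth: Gabarapl2, Atg10, Bnip3 and Bnip3l. Leaving out 1 library gave 0 to 1 called members. The cause was not tested, beyond the omission of Gabarapl2 itself with the copies. Without the 2 libraries of lowest depth the median log2 fold change was 0.222 for the members, −0.004 for nucleation, 0.006 for membrane supply, 0.26 for conjugation, 0.172 for ubiquitin-linked receptors and 0.748 for mitophagy receptors. Membrane supply had 0.051 with GC trends removed and 0.048 to 0.193 with 1 library left out, the ATG8 family 0.128 after quantile normalization, the 2 mitophagy receptors 0.053 to 0.469 and fusion −0.079 to 0.083 with 1 library left out, and upstream signalling −0.048 at a filter of 5 RPKM. Without 1.5 h replicate 1, where 1219 genes were called, 1 gene was called higher among other core genes and upstream signalling, and 1 lower among fusion, other selective, upstream signalling and lysosome genes; with any other library left out it was 0 in each. Over all pairs of a member and an alternative, 482 of 494 kept their side of the threshold and 9 lost a call. The rest gained one, each in the fit with a single 1.5 h library.

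With the replicate number as a replicate block, 141 genes were called in place of 30 and 1 member as before, Gabarapl2 (limma adjusted p = 0.023). The correlations of deviations in same-numbered libraries were 0.35, 0.48 and −0.21, which does not settle if the numbers pair the libraries. With 3 libraries a time and no read counts, the interval of a member's log2 fold change reached from −0.66 to 0.88 at most among those not called, and smaller changes within it could not be seen.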

Other observations

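Some autophagy genes outside the main list had larger differences than most members; they were picked for that, with their values in view. None of these 5 passed the threshold. Wdfy3 (Alfy, a scaffold for aggregate clearance) had 12.43, 8.38 and 8.96 RPKM at 1.5 h and 6.99, 5.88 and 6.33 RPKM at 9.0 h (log2 fold change −0.61 ± 0.17 SE, limma adjusted p = 0.233). Fyco1, an adaptor that links autophagosomes to microtubule motors and is linked to cataract, had 25.87, 22.66 and 18.37 RPKM at 1.5 h and 16.63, 15.09 and 14.21 RPKM at 9.0 h (−0.53 ± 0.16, limma adjusted p = 0.242). Sesn3, an inhibitor of mTOR signalling, had 20.73, 18.1 and 18.53 RPKM at 1.5 h and 13.83, 13.83 and 12.01 RPKM at 9.0 h (−0.53 ± 0.13, limma adjusted p = 0.183). In these 3 genes every 9.0 h library was below every 1.5 h library.

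Nrbf2, a subunit of the Becn1 lipid kinase complex, had 3.35, 2.72 and 3.30 RPKM at 1.5 h and 3.89, 4.46 and 4.33 RPKM at 9.0 h (0.43 ± 0.16, limma adjusted p = 0.352). It has 2 near-identical copies, so its level is uncertain. Naglu, a lysosomal enzyme of heparan sulphate breakdown, had 9.15, 9.22 and 9.62 RPKM at 1.5 h and 14.33, 11.72 and 12.57 RPKM at 9.0 h (0.46 ± 0.14, limma adjusted p = 0.252).

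The order of the most abundant members changed with time in every library. Gabarapl1 was above Sqstm1 in each 1.5 h library (134.5 against 131.64, 185.3 against 149.17 and 169.57 against 145.42 RPKM) and below it in each 9.0 h library (163.6 against 167.94, 155.05 against 164.33 and 152.12 against 169.19 RPKM). This was noticed in the data and was not tested.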
